A study of Mactra quadrangularis with 6 samples.

Results

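The genes described here are the components of the Wnt, BMP (bone morphogenetic protein), Notch and Hedgehog signalling pathways in the mantle of Mactra quadrangularis (synonym Mactra veneriformis), a surf clam of the East Asian coast. They were chosen by words in the description that the deposited table gives each gene, not by any measured value, and 154 of 25145 genes matched. Of these, 75 had the description of a pathway component or a close relative. The other 79 matched by wording alone: 53 contain the word pentraxin, 10 are syntaxins or their binding proteins, 5 are ataxins or aprataxin, 10 are delta subunits or isoforms of unrelated proteins and 1 is a spliceosome protein named after beta-catenin. All words ending in axin were matched, which is why the pentraxin, syntaxin and ataxin descriptions were caught. No description of a Delta ligand of Notch or of axin itself was matched. Results below are for the 75 pathway members, with the 154 matches given beside them where counts are made.

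The series holds 3 libraries from clams under ocean acidification stress and 3 from clams in normal seawater, all made from mantle, the tissue that secretes the shell. The study text says that the stressed clams were kept at high pH, which contradicts the name of the group, and the sources used here give neither the pH nor the exposure time. The groups are called acidified and control after their labels. The same sources leave out animal age, the number of animals in a library and the meaning of the letter p in the library names. Each p-value therefore rests on the spread between these 6 libraries, which may be technical.

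The 4 pathways carry signals between neighbouring cells and are shared by most animals. A secreted or membrane-bound ligand (Wnt, BMP, Delta or Jagged, Hedgehog) binds a receptor (frizzled, BMP receptors, Notch, patched), and the signal reaches the nucleus through beta-catenin, smad proteins, the cleaved part of Notch or GLI factors. In molluscs, BMP and Wnt genes are known for their part in laying out the shell field of the larva, and BMP ligands have been studied in the mantle of adult bivalves in connection with shell formation. Each name below is that of the best match in another species, so it points to the closest described relative and not to a tested function.

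Many members were weakly expressed. FPKM, the deposited unit, scales the count of a gene by its transcript length and by library size. The mean over 6 libraries was under 1 FPKM in 34 of the 75 members and at least 10 FPKM in 10, and 2 Notch-like genes had no count in any library. The member with the highest level was a chordin-like protein 1 gene (Mve08G004940), whose relatives bind and block BMP ligands, at 532, 509 and 598 FPKM in the acidified libraries and 521, 637 and 1055 FPKM in the control libraries. The groups overlapped, and the single high value was that of control replicate 3. Next in mean level came a kielin/chordin-like gene, a Notch-like gene, beta-catenin, frizzled-9-like and a patched domain-containing gene. The ligands were low throughout: no Wnt ligand exceeded a mean of 3.03 FPKM and no BMP ligand a mean of 4.37 FPKM.

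**Figure D1:**
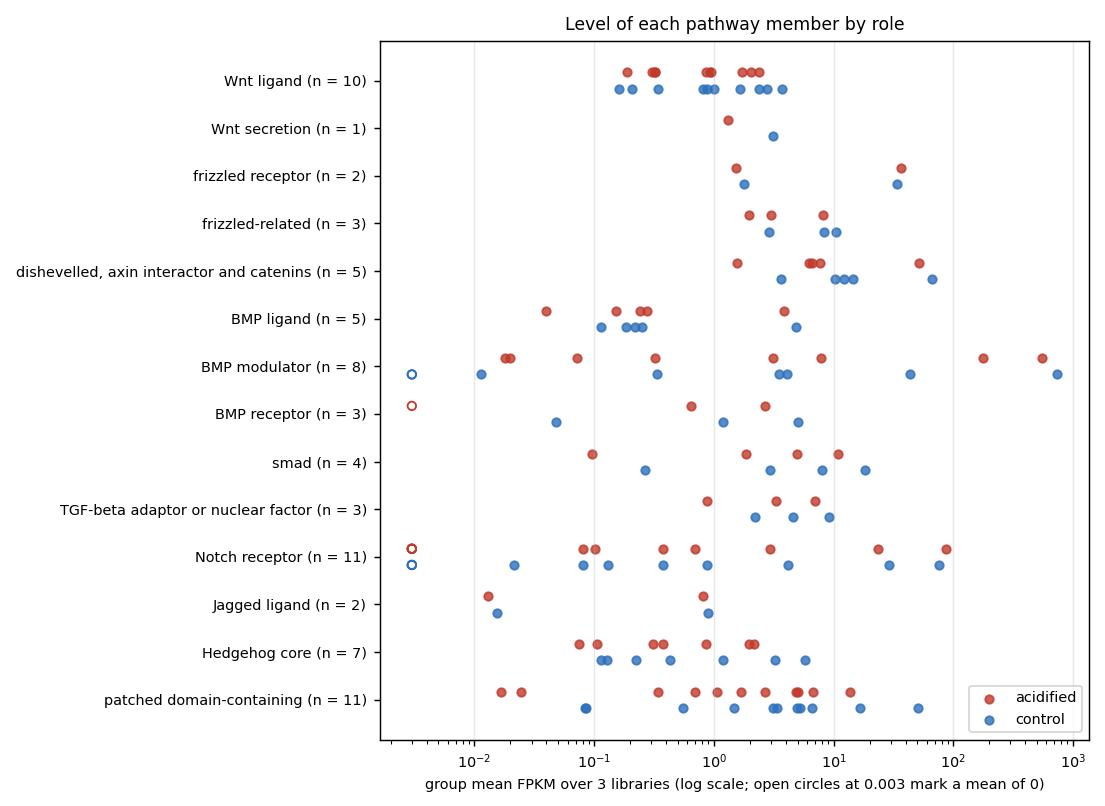
Mean FPKM of each of the 75 pathway members in the acidified (red) and control (blue) groups, on a log axis, in rows by role; each point is 1 gene averaged over 3 libraries, and open circles mark a mean of 0. The BMP modulators hold the highest member and the Wnt ligands stay below 4 FPKM in both groups.

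In the acidified libraries the members leaned lower, and no single gene passed the test over all genes. Fold changes come from edgeR's quasi-likelihood test with TMM scaling, which sets the libraries to the level of the bulk of genes. A log2 fold change is acidified over control. Of the 75 pathway members, 59 passed the filter on low counts, and none of them had an adjusted p under 0.05, against 0.00% of the 17790 genes in the fit (edgeR, Benjamini-Hochberg adjustment). At an unadjusted p under 0.05 there were 11 of the 59 on the lower side (18.6%) and 3 on the higher side (5.08%), against 8.13% and 9.29% of all genes. The median log2 fold change was -0.28 over the 59, with 42 below 0 and 17 above, and 0.00 over all genes. The libraries are from whole tissue, where fewer cells of a type and less RNA per cell cannot be told apart. Over all 154 matches, 117 were tested, of which 16 were lower and 8 higher, with a median of -0.20. DESeq2, run on the same counts, gave 5 of the 59 an adjusted p under 0.05, against 6.90% of all genes, with 4 lower (2.96% of all genes) and 1 higher (3.93% of all genes). The 3 acidified libraries lay below the 3 control libraries in 16 of the 59 members and above them in 3, on TMM-scaled CPM (counts scaled to library size), against 13.4% and 12.2% of all genes. Of the 59, 4 reached the level of the filter in 3 control but fewer acidified libraries, and 1 the other way round. For these few genes the direction is not independent of the filter.

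The number of lower members depended on single libraries. It was 5 of 60 tested (8.33%) without control replicate 3, against 5.93% of all genes, and 6 of 62 (9.68%) without acidified replicate 3, against 6.70% of all genes. Over all genes acidified replicate 3 stood apart, with a root mean square log2 difference of 1.29 to 1.40 from every other library. Acidified replicate 1 was nearer to the control libraries, at 1.16 to 1.20, than to the other acidified libraries, at 1.22 and 1.31, and the controls differed among themselves by 1.03 to 1.08. Without the 11 genes named patched domain-containing protein 3, a choice made after the values were seen, 48 members were tested, of which 7 were lower (14.6%) and 3 higher, with a median of -0.16. The members were also longer than most genes, with a median transcript length of 1.37 times that of the median gene, and 9 of them belonged to the longest 10% of genes. The longest 10% of genes had a median log2 fold change of -0.36 and the shortest 10% one of 0.29, and 21.1% of the longest were lower at an unadjusted p under 0.05. With the trend over length taken out of each library, 9 members were lower and 4 higher, against 6.60% and 8.79% of all genes, and the median was -0.22.

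**Figure D2:**
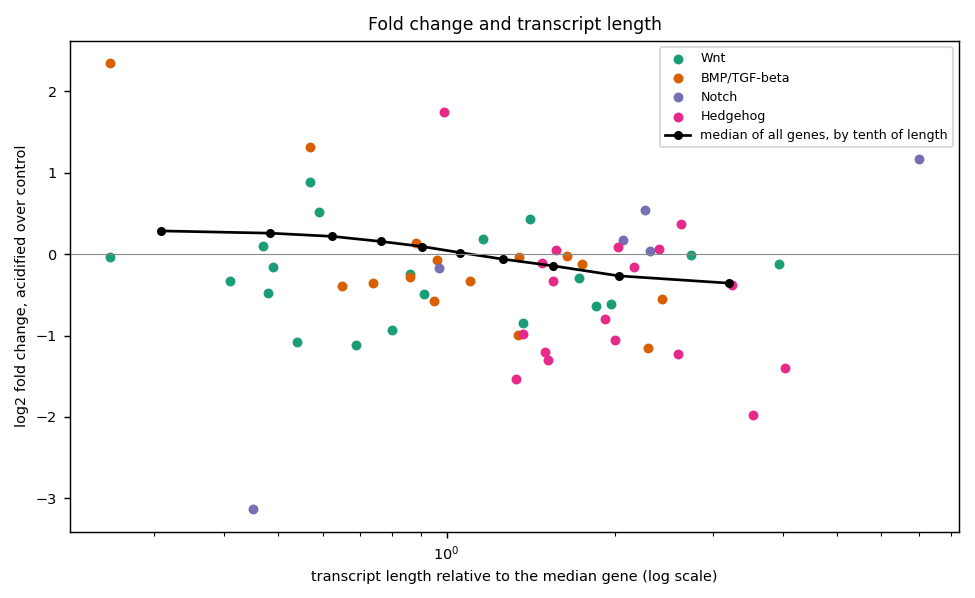
Log2 fold change (acidified over control) of the tested pathway members against transcript length relative to the median gene (log axis), coloured by pathway; the black line joins the medians over all genes in each of 10 equal classes of length. The line runs from 0.29 in the shortest class down to -0.36 in the longest, and most Hedgehog members lie right of the median gene.

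Scaled by library size alone, all genes had a median of -0.33 and the pathway members one of -0.60, so the fold changes given here are relative to that shift. FPKM values are as deposited and carry the shift, so a gene can have close FPKM in both groups and a positive fold change. In 8 of the 59 members the direction changed with library size scaling alone or on FPKM, as that shift does to fold changes this close to 0, here between 0.04 and 0.19.

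**Figure D3:**
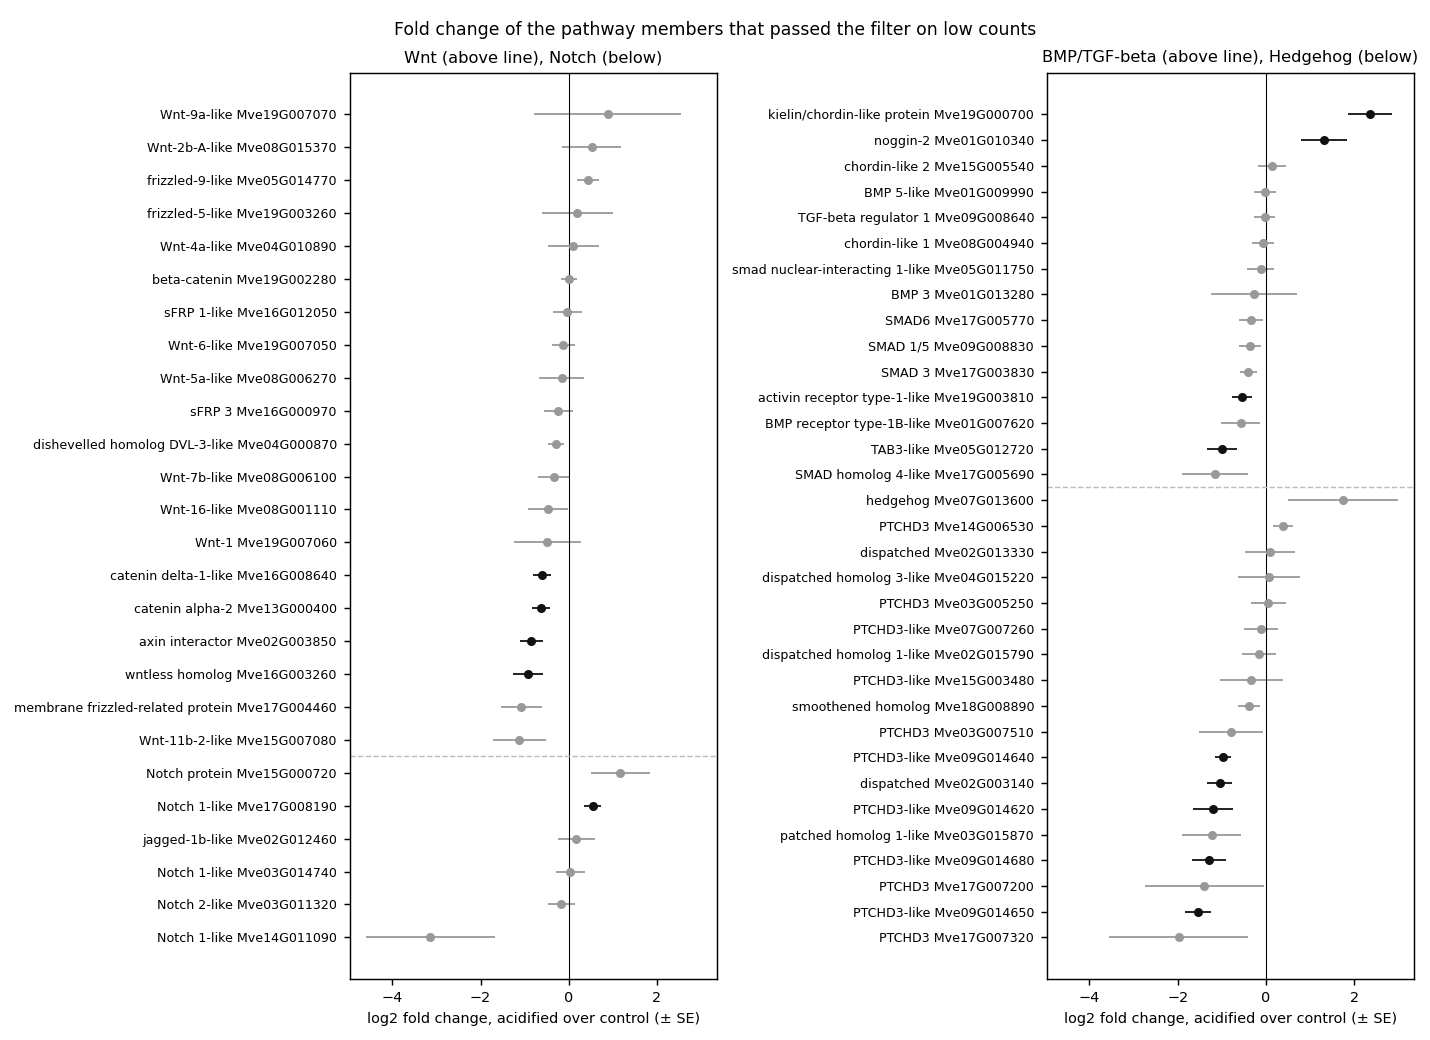
Log2 fold change (acidified over control) with its standard error for the 59 pathway members that passed the filter on low counts, by pathway (PTCHD3 is patched domain-containing protein 3); black marks an unadjusted p under 0.05 in edgeR and grey the rest. Black points lie left of 0 for 11 members and right of 0 for 3.

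Of the Wnt ligands, secreted proteins that bind frizzled receptors, 10 were found and 9 tested. None had an unadjusted p under 0.05, and the log2 fold changes ran from -1.12 to 0.88. Wnt-7b-like (Mve08G006100) had the highest mean level, at 3.22, 1.84 and 2.03 FPKM in the acidified libraries and 3.61, 4.16 and 3.32 FPKM in the control libraries, with a log2 fold change of -0.33 ± 0.36 (SE). In FPKM its highest acidified value lay below its lowest control value, by less than the gap between the acidified libraries. On TMM-scaled CPM the groups overlapped. Next in level came Wnt-5a-like (Mve08G006270), whose relatives act in cell polarity, with 3.72, 1.51 and 0.860 FPKM in the acidified libraries and 2.57, 2.60 and 3.19 FPKM in the control libraries, overlapping. Wnt-6-like (Mve19G007050) followed with 1.73 ± 0.604 FPKM in the acidified group and 2.37 ± 0.466 FPKM in the control group (SD, n = 3 each).

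The lowest fold change among the Wnt ligands was that of Wnt-11b-2-like (Mve15G007080), a relative of ligands that guide cell movements. It had 0.489, 0.222 and 0.254 FPKM in the acidified libraries and 0.696, 0.972 and 0.981 FPKM in the control libraries. The groups did not overlap, and the log2 fold change was -1.12 ± 0.61 (SE), with an adjusted p of 0.386 (edgeR). Wnt-16-like (Mve08G001110) stood at 1.08, 0.829 and 0.896 FPKM in the acidified libraries and 1.53, 1.70 and 1.70 FPKM in the control libraries, also apart, at -0.47 ± 0.44 (SE). Wnt-2b-A-like, Wnt-9a-like and Wnt-4a-like were the ligands above 0, at 0.52 ± 0.67, 0.88 ± 1.66 and 0.10 ± 0.57 (SE), each within its error, and that of Wnt-4a-like was -0.19 with library size scaling alone. Wnt-6-like, Wnt-1 and Wnt-9a-like lie next to each other on chromosome 19, between 26593140 and 26734386, with no other listed gene between them. Their mean levels over all libraries were unequal, with Wnt-6-like above 1 FPKM and Wnt-1 and Wnt-9a-like below it in both groups.

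Wntless (Mve16G003260), the membrane protein that carries Wnt ligands to the cell surface, was lower at an unadjusted p under 0.05. It had 1.55, 1.57 and 0.798 FPKM in the acidified libraries and 3.09, 2.72 and 3.60 FPKM in the control libraries. All acidified libraries lay below all control libraries, and the log2 fold change was -0.93 ± 0.34 (SE), with an adjusted p of 0.235 (edgeR). The unadjusted p was above 0.05 in 3 of 6 fits that left out a library.

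Of the receptors, neither frizzled gene had an unadjusted p under 0.05. Frizzled-9-like (Mve05G014770), a Wnt receptor and one of the more abundant members, had 53.5, 31.9 and 24.96 FPKM in the acidified libraries and 32.5, 35.7 and 33.5 FPKM in the control libraries. In FPKM, acidified replicate 1 lay above all controls and acidified replicates 2 and 3 below them. On TMM-scaled CPM, which does not carry the shift of all genes, the groups also overlapped, and the log2 fold change was 0.43 ± 0.25 (SE). Frizzled-5-like (Mve19G003260) was low and scattered, with 1.53 ± 0.819 FPKM in the acidified group and 1.80 ± 1.70 FPKM in the control group (SD, n = 3 each), and its log2 fold change of 0.19 became -0.22 with library size scaling alone. Of the proteins related to frizzled by their ligand-binding domain, the secreted antagonists sFRP1-like (Mve16G012050) and sFRP3 (Mve16G000970) had log2 fold changes of -0.04 ± 0.33 and -0.24 ± 0.32 (SE). Membrane frizzled-related protein (Mve17G004460), known from the mammalian eye, had 3.20, 3.58 and 2.31 FPKM in the acidified libraries and 5.11, 4.48 and 15.2 FPKM in the control libraries. The groups were apart, with control replicate 3 far above the rest, and the log2 fold change was -1.08 ± 0.47 (SE).

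Inside the cell, 3 of 5 members (60.0%) were lower at an unadjusted p under 0.05 and none was higher, against 8.13% and 9.29% of all genes. With the length trend removed 1 of the 5 was lower, and their median length was 1.85 times that of the median gene. Beta-catenin (Mve19G002280), which carries the Wnt signal to the nucleus and also joins cadherins at cell contacts, was level, at 54.7, 47.9 and 52.2 FPKM in the acidified libraries and 59.6, 56.6 and 81.6 FPKM in the control libraries. The lower mean in the acidified libraries matched the shift of all genes, and the log2 fold change was 0.00 ± 0.18 (SE). The other catenins of cell contacts stood lower. Catenin alpha-2 (Mve13G000400), which links cadherins to actin, had 7.69, 6.48 and 4.63 FPKM in the acidified libraries and 11.1, 10.7 and 14.9 FPKM in the control libraries. Catenin delta-1-like (Mve16G008640), which stabilizes cadherins at the membrane, had 9.71, 7.59 and 5.66 FPKM in the acidified libraries and 14.3, 12.5 and 17.2 FPKM in the control libraries. Neither gene's groups overlapped. Their log2 fold changes were -0.63 ± 0.21 and -0.61 ± 0.21 (SE), with adjusted p of 0.201 and 0.213 (edgeR), and both lost the unadjusted threshold with the length trend removed, without acidified replicate 3 and without control replicate 3, and the catenin delta-1-like gene also without control replicate 1.

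The axin interactor gene (Mve02G003850), whose relative in zebrafish restrains signalling by axin, had 1.59, 1.21 and 1.899 FPKM in the acidified libraries and 3.13, 3.60 and 4.10 FPKM in the control libraries. The groups were apart, and the log2 fold change of -0.85 ± 0.26 (SE) kept its unadjusted p under 0.05 when any 1 library was left out. Dishevelled (Mve04G000870), the adaptor that passes the signal on from frizzled, had 6.62 ± 1.42 FPKM in the acidified group and 10.2 ± 1.41 FPKM in the control group (SD, n = 3 each), and a log2 fold change of -0.29 ± 0.19 (SE).

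**Figure D4:**
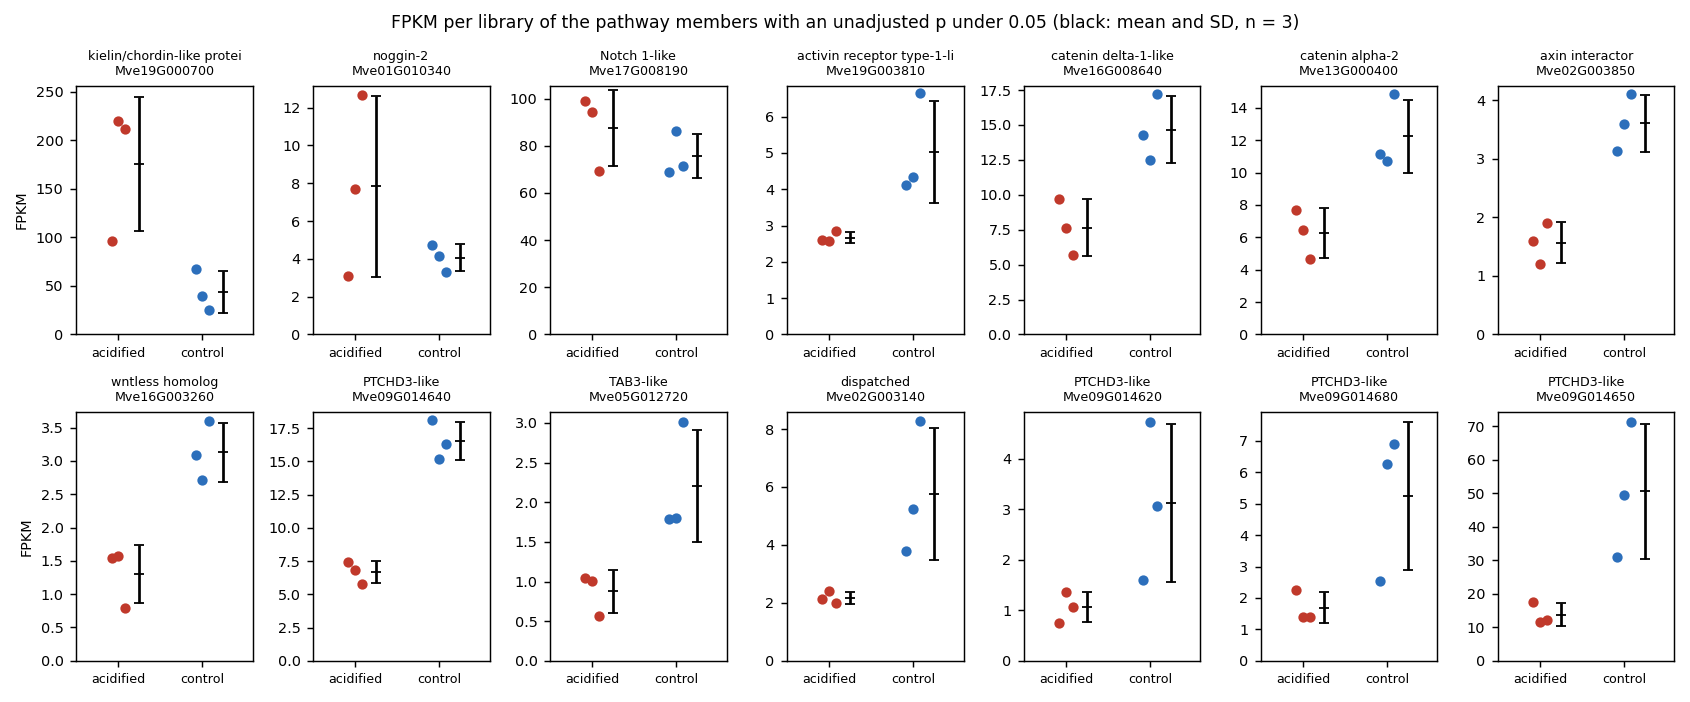
FPKM in each library for the 14 pathway members with an unadjusted p under 0.05, acidified in red and control in blue, with the mean and SD of 3 libraries in black; each axis starts at 0. The first 3 panels are the members with a positive fold change, of which noggin-2 and the Notch-like gene overlap between groups; PTCHD3 is patched domain-containing protein 3.

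In the BMP and TGF-beta branch the ligands were scarce. The 2 members that were higher at an unadjusted p under 0.05 are named after proteins that bind ligands outside the cell. Of the 15 members tested, 2 were higher and 2 lower (13.3% each), against 9.29% and 8.13% of all genes. BMP5-like (Mve01G009990) was the only ligand above 1 FPKM, with 5.16, 2.85 and 3.55 FPKM in the acidified libraries and 5.33, 4.80 and 4.51 FPKM in the control libraries. Its groups overlapped, at a log2 fold change of -0.02 ± 0.24 (SE). A pair of BMP2-A-like genes on chromosome 3 (Mve03G010170 and Mve03G010200), relatives of the ligand best known from shell formation, stayed under 0.40 FPKM in each library and were not tested. Of the BMP3 pair on chromosome 1, Mve01G013280 had 0.154 ± 0.0448 FPKM in the acidified group and 0.252 ± 0.221 FPKM in the control group (SD, n = 3 each), and Mve01G013290 had 2 counts in the acidified libraries and 4 in the control libraries.

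Of the 8 chordin, noggin and kielin/chordin-like genes, named after proteins that bind BMP ligands outside the cell, 4 were tested. At an unadjusted p under 0.05, 2 of them were higher (50.0%), against 9.29% of all genes, and 1 was with the length trend removed. The kielin/chordin-like gene Mve19G000700 (chromosome 19, 2244279 to 2246370) had the largest positive fold change of all members. It stood at 96.3, 220 and 211 FPKM in the acidified libraries and 67.4, 39.6 and 24.7 FPKM in the control libraries. All acidified libraries lay above all control libraries, acidified replicate 1 the least so. The log2 fold change was 2.35 ± 0.50 (SE), with an adjusted p of 0.120 in edgeR and 8.08e-05 in DESeq2. The fold change lay between 2.04 and 2.82 when 1 library at a time was left out. Its transcript is short, at 0.25 times the median length. In mice the protein of this name strengthens BMP signalling, while chordin itself blocks it.

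Noggin-2 (Mve01G010340), a secreted antagonist of BMP ligands, had 3.10, 7.72 and 12.7 FPKM in the acidified libraries and 4.71, 4.15 and 3.31 FPKM in the control libraries. In FPKM, acidified replicates 2 and 3 lay above all controls and acidified replicate 1 below them, and the groups also overlapped on TMM-scaled CPM. The log2 fold change was 1.32 ± 0.52 (SE), with an adjusted p of 0.256 (edgeR), and the unadjusted p rose above 0.05 in 5 of 6 fits that left out a library. Without acidified replicate 3 the log2 fold change was the lowest of these, at 0.73. The other tested modulators were level: chordin-like protein 1 at -0.07 ± 0.25 and chordin-like protein 2 (Mve15G005540) at 0.14 ± 0.32 (SE), the second with the opposite sign under library size scaling. Another 2 kielin/chordin-like genes had 4 counts each in 1 acidified library and none in the control libraries.

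The 2 tested receptors and the 4 smads all had a log2 fold change below 0, as did 8925 of the 17790 genes tested. Of the receptors 1 (50.0%) was lower at an unadjusted p under 0.05, against 8.13% of all genes. The activin receptor type-1-like gene (Mve19G003810), a type of receptor that takes up BMP and activin signals, had 2.59, 2.57 and 2.84 FPKM in the acidified libraries and 4.10, 4.33 and 6.64 FPKM in the control libraries. The groups were apart and the acidified libraries close together. The log2 fold change was -0.55 ± 0.23 (SE), with an adjusted p of 0.268 (edgeR), and the unadjusted p was above 0.05 in 4 of 6 fits that left out a library. The log2 fold change was -0.36 without control replicate 3 and -0.22 with the length trend removed, a fit in which its unadjusted p was above 0.05; the transcript has 2.43 times the median length. The BMP receptor 1B-like gene (Mve01G007620) stood at -0.58 ± 0.45 (SE). The smads pass the signal from receptor to nucleus. Smad3 (Mve17G003830), of the TGF-beta and activin branch, had 12.1, 11.7 and 9.21 FPKM in the acidified libraries and 16.2, 19.5 and 18.9 FPKM in the control libraries, apart, at -0.40 ± 0.19 (SE). Smad1/5 (Mve09G008830), of the BMP branch, had 6.18, 5.50 and 3.31 FPKM in the acidified libraries and 7.40, 7.68 and 9.06 FPKM in the control libraries, at -0.36 ± 0.25 (SE). The inhibitory SMAD6 (Mve17G005770) lay at -0.33 ± 0.27 and the shared smad4 (Mve17G005690), under 0.40 FPKM in each library, at -1.15 ± 0.75 (SE).

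Of the adaptor and nuclear factors, the gene for a TAB3-like protein (Mve05G012720), which couples the kinase TAK1 to upstream signals, was lower at an unadjusted p under 0.05. It had 1.05, 1.01 and 0.568 FPKM in the acidified libraries and 1.79, 1.80 and 3.02 FPKM in the control libraries. The groups were apart, at a log2 fold change of -0.99 ± 0.34 (SE) and an adjusted p of 0.215 (edgeR), and the unadjusted p was above 0.05 without acidified replicate 3 and without control replicate 3. The smad nuclear-interacting protein 1-like gene and TGF-beta regulator 1 were level, at -0.12 ± 0.31 and -0.03 ± 0.23 (SE).

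In the Notch branch 11 genes carried the name of the receptor, and only 5 were tested. The table's pathway column assigns Notch signalling to 7 of the 13 members of the branch, and repeats of the kind found in Notch also occur in other surface proteins. The most abundant, Mve17G008190 (chromosome 17, 29092984 to 29113300), had 99.0, 94.5 and 69.3 FPKM in the acidified libraries and 69.0, 86.4 and 71.4 FPKM in the control libraries. The FPKM values overlapped, with acidified replicate 3 inside the control range. On TMM-scaled counts the groups were apart, at a log2 fold change of 0.54 ± 0.20 (SE) and an adjusted p of 0.232 (edgeR). It lost the unadjusted threshold in 4 of 6 fits that left out a library, and it was 0.23 with library size scaling alone. A second abundant receptor gene, Mve03G014740, had 27.5, 19.1 and 23.7 FPKM in the acidified libraries and 15.2, 31.0 and 41.2 FPKM in the control libraries, overlapping, and its log2 fold change of 0.04 turned to -0.29 with library size scaling alone.

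The Notch-like gene Mve14G011090 had the lowest fold change of all members. It had 0.242, 0 and 0 FPKM in the acidified libraries and 1.04, 0.916 and 0.653 FPKM in the control libraries, which is 7 against 82 counts in all. It passed the filter through the control libraries alone, so its fold change is not comparable with those of other members, and its adjusted p was 0.320 (edgeR). The long gene Mve15G000720 lay at 1.17 ± 0.66 (SE) with overlapping groups. The Jagged ligand gene Mve02G012460, whose product activates Notch on neighbouring cells, averaged 0.815 ± 0.420 FPKM in acidified and 0.891 ± 0.208 FPKM in control libraries (SD, n = 3 each). Its log2 fold change was 0.17 ± 0.42 (SE) and took the opposite sign under library size scaling. A Notch-like gene on chromosome 16 (Mve16G012220) had 29 counts in acidified replicate 3 and none in any other library.

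The Hedgehog branch held 7 core genes and 11 relatives named patched domain-containing protein 3, all tested. Of the core genes 1 was lower at an unadjusted p under 0.05 (14.3%), and of the relatives 4 (36.4%), against 8.13% of all genes. DESeq2 called 1 core gene and 3 relatives lower at an adjusted p under 0.05, against 2.96% of all genes. The hedgehog ligand gene itself (Mve07G013600) was close to the limit of detection, with 0.373, 0.185 and 0.374 FPKM in the acidified libraries and 0, 0.226 and 0.114 FPKM in the control libraries, and a log2 fold change of 1.75 ± 1.24 (SE). Its receptor patched 1 (Mve03G015870) had 0.0743 ± 0.0258 FPKM in the acidified group and 0.223 ± 0.0758 FPKM in the control group (SD, n = 3 each), at -1.23 ± 0.66 (SE). Smoothened (Mve18G008890), which passes the signal on when patched is bound, had 1.77, 2.22 and 1.902 FPKM in the acidified libraries and 3.89, 2.44 and 3.43 FPKM in the control libraries, at -0.38 ± 0.24 (SE).

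Of 4 genes for dispatched, the transporter that releases lipid-modified Hedgehog from the cell that makes it, 1 stood apart. Mve02G003140 (chromosome 2, 8647180 to 8677527) had 2.13, 2.39 and 1.98 FPKM in the acidified libraries and 3.80, 5.23 and 8.27 FPKM in the control libraries. The groups were apart, with the spread mainly among the controls. The log2 fold change was -1.05 ± 0.28 (SE), with an adjusted p of 0.154 in edgeR and 0.0243 in DESeq2, and -0.76 without control replicate 3. The other 3 dispatched genes had log2 fold changes between -0.16 and 0.09, and the 2 positive ones turned negative when library size alone was used.

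The 11 genes named patched domain-containing protein 3 belong to the same family of membrane transporters as patched and are known from mice mainly in sperm. They are not known as Hedgehog receptors, and the table's pathway column gives the lysosome to 8 of the 9 that have a pathway and Hedgehog signalling to none. The 4 that were lower at an unadjusted p under 0.05 are the 4 that lie together on chromosome 9, within 203 kilobases (46655005 to 46857669). None of the 7 elsewhere reached that threshold, and their log2 fold changes ran from -1.98 to 0.38 with a median of -0.33, against a median of -1.25 in the cluster. The difference between the cluster and the others was not tested. The 4 copies share a description, so reads may be split among them and their separate values are uncertain.

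Mve09G014650, the most abundant of the cluster, had 17.6, 11.5 and 12.1 FPKM in the acidified libraries and 31.1, 49.4 and 71.2 FPKM in the control libraries. Its log2 fold change was -1.54 ± 0.29 (SE), with an adjusted p of 0.118 in edgeR and 0.000156 in DESeq2. Mve09G014640 had 7.42, 6.85 and 5.76 FPKM in the acidified libraries and 18.1, 15.2 and 16.3 FPKM in the control libraries. In both genes all acidified libraries lay below all control libraries, and Mve09G014640 had the tighter groups, with a log2 fold change of -0.98 ± 0.18 (SE) and an adjusted p of 0.118 in edgeR. Mve09G014680 had 2.26, 1.41 and 1.40 FPKM in the acidified libraries and 2.53, 6.26 and 6.91 FPKM in the control libraries. Mve09G014620 had 0.757, 1.37 and 1.07 FPKM in the acidified libraries and 1.604, 4.73 and 3.06 FPKM in the control libraries. Control replicate 1 was the lowest control in both, just above the acidified libraries in FPKM and overlapping with them after TMM scaling, and the log2 fold changes were -1.30 ± 0.38 and -1.20 ± 0.45 (SE). Summed over the 4 genes, the acidified libraries held 28.02, 21.2 and 20.4 FPKM and the control libraries 53.3, 75.6 and 97.4 FPKM.

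Of the 4 cluster genes, Mve09G014650, Mve09G014640 and Mve09G014680 kept an unadjusted p under 0.05 in all 6 fits that left out a library, and Mve09G014620 in 2. With the length trend removed the same 3 genes kept it. The cluster is interleaved with 3 genes described as fusarin C synthetase-like, each directly beside a patched domain-containing gene. The name is that of a fungal polyketide synthase, and the table's pathway column gives these 3 genes fatty acid biosynthesis. These were named after their values were seen. Mve09G014630 had 0.385, 0.400 and 0.181 FPKM in the acidified libraries and 1.51, 0.753 and 1.28 FPKM in the control libraries, a log2 fold change of -1.54 ± 0.39 (SE). Mve09G014660 and Mve09G014690 lay at -1.52 ± 0.50 and -1.57 ± 0.50 (SE). Control replicate 1 stood near the acidified libraries in both, as in the patched domain-containing genes Mve09G014680 and Mve09G014620 but not in Mve09G014650 and Mve09G014640. The genes flanking the run, a kinesin KIF3A gene and a microsomal glutathione S-transferase on one side and an uncharacterized gene on the other, had log2 fold changes of -0.37 ± 0.22, 0.31 ± 0.25 and 0.86 ± 0.85 (SE).

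The whole table holds 5 fusarin C synthetase-like genes, and 4 of them lie directly beside a gene named patched domain-containing protein 3. The fifth (Mve09G006170), far from any of them on chromosome 9, had 1.10, 1.18 and 1.88 FPKM in the acidified libraries and 3.65, 2.34 and 6.89 FPKM in the control libraries. It too was lower at an unadjusted p under 0.05, at a log2 fold change of -1.24 ± 0.41 (SE), with an adjusted p of 0.198 in edgeR and 0.0445 in DESeq2, so the direction was not confined to the cluster. The fourth such pair is on chromosome 7, where the fusarin C synthetase-like gene Mve07G007270 had 18.4, 7.94 and 15.0 FPKM in the acidified libraries and 20.4, 18.1 and 21.5 FPKM in the control libraries. Its partner Mve07G007260 had 6.96, 2.37 and 5.38 FPKM in the acidified libraries and 5.07, 8.57 and 6.17 FPKM in the control libraries, at a log2 fold change of -0.11 ± 0.39 (SE). In both genes acidified replicate 2 was the lowest library.

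**Figure D5:**
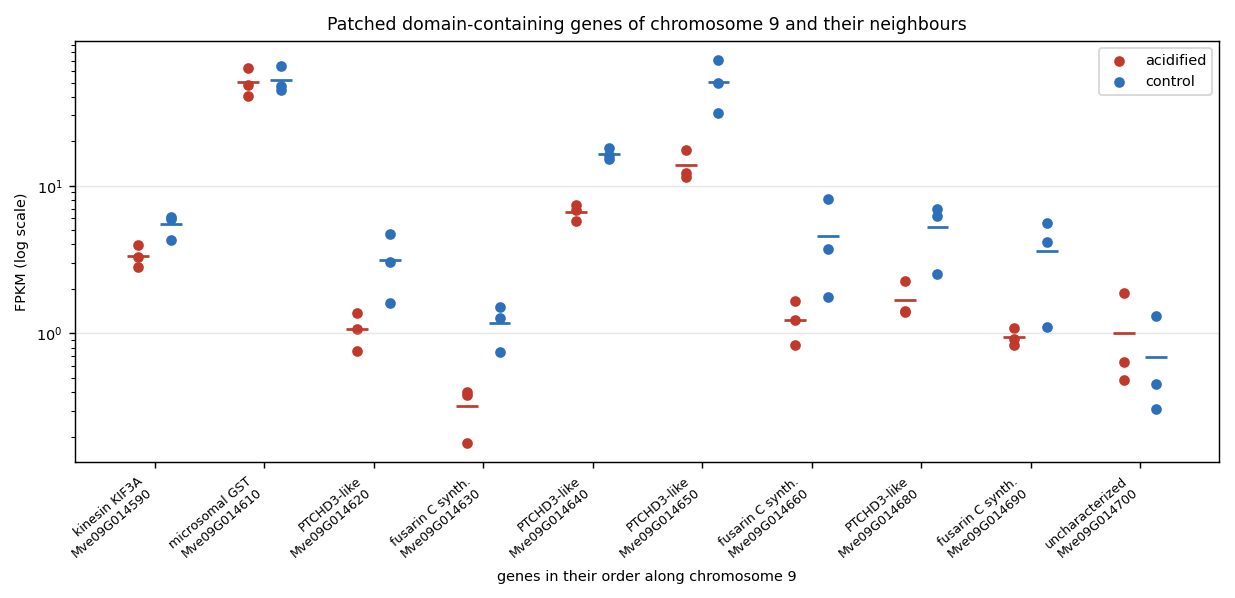
FPKM (log axis) of the 4 patched domain-containing genes (PTCHD3-like) of chromosome 9, the 3 fusarin C synthetase-like genes among them and the flanking genes, in chromosome order; each point is 1 library, acidified in red left of control in blue, and bars are means of 3. The 7 genes of the run have lower means in the acidified group, down to 0.322 against 1.18 FPKM in Mve09G014630. The flanking kinesin KIF3A gene is also lower in FPKM without overlap, with means of 3.37 against 5.48. The glutathione S-transferase (means 50.6 against 52.4 FPKM) and the uncharacterized gene overlap between groups.

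Other genes of the same pathways, picked by a list of names made with earlier results of these data known, also leaned lower. Of 82 such genes, 71 were tested, none passed the adjusted threshold of edgeR and 5 passed that of DESeq2, against 6.90% of all genes. At an unadjusted p under 0.05, 11 were lower (15.5%) and 3 higher (4.23%), against 8.13% and 9.29% of all genes. Their median log2 fold change was -0.23, and their median length was 1.49 times that of the median gene. With the length trend removed the median fold change was -0.10, with 8 lower and 6 higher, against 6.60% and 8.79% of all genes. In the main fit the smallest p was that of an LRP4 gene (Mve06G003000), of the low-density lipoprotein receptor-related family and listed under Wnt. It stood at 13.8, 18.2 and 9.37 FPKM in the acidified libraries and 37.5, 41.2 and 60.1 FPKM in the control libraries. Its groups were far apart, at a log2 fold change of -1.40 ± 0.28 (SE) and an adjusted p of 0.119 (edgeR). A mind-bomb-like gene (Mve04G001620), whose product marks Notch ligands for uptake, had 3.76, 3.17 and 2.50 FPKM in the acidified libraries and 6.48, 7.42 and 9.14 FPKM in the control libraries. A pair of casein kinase I-like genes, Mve10G011190 and Mve01G021250, whose relatives mark beta-catenin for breakdown, stood at -1.12 ± 0.28 and -0.83 ± 0.22 (SE), and in each the groups did not overlap.

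On the higher side, the MIB2 gene Mve11G005070, of the same family as mind-bomb, averaged 9.90 ± 1.14 FPKM in acidified and 8.13 ± 0.777 FPKM in control libraries (SD, n = 3 each), with overlapping FPKM and a log2 fold change of 0.62 ± 0.18 (SE). Another 2 genes of the mind-bomb family (Mve04G003290 and Mve10G001670) were lower at an unadjusted p under 0.05, so the family did not share a direction. The growth/differentiation factor 8-like gene Mve03G011020, a relative of the muscle growth inhibitor myostatin, had 1.36, 0.774 and 1.73 FPKM in the acidified libraries and 0.0613, 0.129 and 0.896 FPKM in the control libraries. In FPKM the groups overlapped through control replicate 3. On TMM-scaled CPM they were apart, at a log2 fold change of 2.23 ± 0.89 (SE) and an adjusted p of 0.259 (edgeR). The gene named myostatin (Mve12G004830) stood lower, at -0.46 ± 0.17 (SE). Its transcript has 3.2 times the median length, and with the length trend removed its log2 fold change was -0.09. A second LRP4-like gene (Mve15G005050) completed the higher side, at 0.46 ± 0.17 (SE), with overlapping FPKM. A SKI family corepressor gene (Mve10G001620) came next, at 0.49 ± 0.21 (SE), with an unadjusted p above 0.05. With library size scaling alone the log2 fold changes of Mve15G005050, Mve11G005070 and Mve03G011020 were 0.13, 0.30 and 1.85. None of the partners was then higher at an unadjusted p under 0.05.

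Among the 79 genes matched by wording alone, 58 were tested, of which 5 lay on either side at an unadjusted p under 0.05 (8.62% each, against 8.13% lower and 9.29% higher of all genes), with a median log2 fold change of -0.13. The pentraxin-named gene Mve08G004930 lies directly beside chordin-like protein 1 on chromosome 8, and it too was highest in control replicate 3, at 864 FPKM.

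The libraries held 28482358 to 37066703 counts in the acidified group and 31929388 to 32992500 in the control group. All terms of the marker list for shell-forming epithelium (perlucin, chitin synthase, tyrosinase, carbonic anhydrase, nacrein and pif) were counted, with a summed 1132 to 2184 FPKM in the acidified libraries and 1065 to 1458 FPKM in the control libraries, and 18 of 26 tested genes lay above 0. The terms did not share a direction. The pif term ran from 358 to 1136 FPKM in the acidified libraries and from 280 to 457 FPKM in the control libraries. Chitin synthase (18.88 to 22.35 against 22.38 to 30.2 FPKM) had a narrowly lower range in the acidified libraries, in FPKM that carry the shift of all genes. Nacrein (2.29 to 3.82 against 3.79 to 6.72 FPKM) leaned lower, with ranges that overlapped at the edge. The ranges of pif, perlucin, tyrosinase and carbonic anhydrase overlapped. Of the muscle list 24 of 29 tested genes lay below 0, with a sum of 2698 to 4486 FPKM in the acidified libraries and 3705 to 5735 FPKM in the control libraries. Of the nerve list 17 of 29 lay below 0, with 78.2 to 97.1 FPKM in the acidified libraries and 124 to 172 FPKM in the control libraries, and synapsin and choline acetyltransferase were near 0. Of the ciliated cell list 26 of 42 lay below 0, at 334 to 370 FPKM in the acidified libraries and 334 to 432 FPKM in the control libraries. Of the haemocyte list 15 of 21 lay above 0, at 267 to 283 FPKM in the acidified libraries and 246 to 301 FPKM in the control libraries, and no description matched hemocyanin. Of the germ line list 3 of 6 lay above 0, at 14.1 to 22.9 FPKM in the acidified libraries and 18.0 to 23.0 FPKM in the control libraries, and no description matched vasa. The part of such cells in the values above was not tested.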

How the data were processed

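Per the labels' protocols, poly(A) RNA from mantle was made into stranded dUTP libraries and sequenced as paired ends. Per the submitters' processing notes, cutadapt 1.9, HISAT2 2.2.1, StringTie 2.1.6, DESeq2 and edgeR were used, and no source used here names the genome build. Coordinates are the deposited table's. Per the file headers, the authors deposited a raw count and an FPKM value per gene and library. The table also has 12 columns for 6 libraries that are no sample of this series as given, and they were left out.

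The counts were tested over all genes with edgeR 4.0.16 (R 4.3.3): filterByExpr, TMM scaling, glmQLFit and glmQLFTest on group alone, and Benjamini-Hochberg adjustment. The filter kept 17790 genes. It keeps a gene that reaches 0.31 CPM (counts scaled to library size) in 3 libraries, and of the 59 pathway members kept, 50 did so in all 6. Standard errors come from the F statistic. Relative transcript length is the ratio of count to FPKM, which agreed between libraries within a factor of 1.02 in the median gene. DESeq2 1.42.0 and limma 3.58.1 (on log2 of FPKM plus 0.1 or 1, for a mean of at least 0.1 FPKM) were alternatives, with other scalings, no filter, a replicate block and each library left out. The procedure was tested on simulated data. Counting error matters for genes with few counts, and the spread between libraries limits precision elsewhere.

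Members, lists and tests were chosen with earlier results of these data known. Genes named are, in each role, the 3 with the smallest p per direction and the 2 with the highest FPKM, and 4 partners per direction. The partner myostatin gene, the other mind-bomb genes, the fusarin C synthetase-like genes and flanks, the pentraxin-named gene and members with few counts, and Wnt-6-like, dishevelled, SMAD6, Mve09G014620 and Mve07G007260, were added after their values were seen. Roles follow the descriptions.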

Additional observations from a re-analysis of the deposited data

How the results depend on the processing

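Scaled by library size alone, 32 of all matches, 17 of the pathway members and 21 of the partners were lower at an unadjusted p under 0.05, with 4, 1 and 0 higher, and medians of -0.53, -0.60 and -0.54. Of all genes, 17.7% were then lower and 3.24% higher, against 8.13% and 9.29% with TMM. With limma on log2(FPKM + 0.1) these were 32, 20 and 25 lower, 4, 1 and 1 higher, and medians of -0.47, -0.52 and -0.56. With limma on log2(FPKM + 1) they were 33, 20 and 25 lower, 4, 1 and 1 higher, with medians of -0.30 for all matches and -0.34 for the partners. Of all genes, 17.0% were lower in either limma fit, and 3.26% and 3.17% were higher. These fits differ from the main one in test, unit, filter and scaling together. DESeq2 gave an adjusted p under 0.05 to 10 of all matches and 5 of the pathway members, against 6.90% of all genes. In that fit 13 matches were higher at an unadjusted p under 0.05, against 10.4% of all genes. With the length trend removed, 10 matches were lower and 6 partners were higher, against 6.60% lower and 8.79% higher of all genes, and the partner median was -0.10. With no filter on low counts the pathway median was -0.16, over more genes of few counts. Same-numbered libraries of the 2 groups did not deviate together (correlations from -0.0435 to 0.00894), so the numbers were not taken as pairs, and with them as a replicate block the median of all matches was -0.26.

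Leaving out 1 library at a time gave 10 to 16 lower and 6 to 8 higher matches with medians of -0.24 to -0.06, 5 to 12 lower and 1 to 3 higher pathway members with medians of -0.36 to -0.21, and 6 to 15 lower and 1 to 3 higher partners with medians of -0.29 to -0.15. Of all genes, 5.93% to 8.42% were lower and 6.97% to 8.71% higher in these fits. The fewest lower genes of all 3 lists came without control replicate 3. With DESeq2 size factors inside edgeR, 11 pathway members were lower and 3 higher, as with TMM. Over 56 named genes and 14 alternatives, 631 of 784 values kept their direction and side of the unadjusted threshold, 52 lost it, 34 gained it and 67 changed sign while past it in neither fit. No named gene past the threshold in either fit changed sign. The cause of these changes was not tested beyond what each alternative is built to change. Members with few counts have wide errors, and those below the filter were not tested.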
